A study of Homo sapiens with 18 samples.

Results

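The protein arginine methyltransferases were followed in NCI-H1299, a line of human lung cancer cells, given plasmids for TBX2, TBX3, TBX4 or TBX5. The group was taken as 9 genes, chosen by symbol from the annotation of the count table: PRMT1, PRMT2, PRMT3, CARM1, PRMT5, PRMT6, PRMT7 and PRMT9, with WDR77, the partner protein of PRMT5. All 9 were among the 63677 genes of the table, and all 9 were among the 15576 genes with enough counts to be tested. RNA-seq covered 18 libraries, with 3 libraries in each of 6 groups. All groups were the same line, and the cells were transfected transiently with a lipid reagent, so that not every cell carries a plasmid. The TBX2 and TBX4 plasmids carry the human genes with a Flag tag, the TBX3 plasmid the human gene with an HA tag and the TBX5 plasmid the mouse gene with an HA tag. The TBX2 and TBX4 genes were in the pORF plasmid and the TBX3 and TBX5 genes in pCGN. One control group was given the empty vector (EV), and the treatment of the other, labelled Ctl, is not named. The labels do not say which plasmid the empty vector was, so effects of plasmid and of TBX gene cannot be told apart. The EV and Ctl libraries were pooled as 6 controls, which all 4 TBX comparisons share.

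Protein arginine methyltransferases move a methyl group from S-adenosylmethionine to arginine side chains of histones, RNA-binding proteins and many other proteins. PRMT1, PRMT2, PRMT3, CARM1 and PRMT6 make asymmetric dimethylarginine, PRMT5 and PRMT9 make symmetric dimethylarginine, and PRMT7 stops at monomethylarginine. In cancers, PRMT1 and PRMT5 are known for their roles in splicing, transcription and growth, while the T-box proteins are transcription factors of lung, limb and heart development.

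The libraries held 7365221 to 11743179 counts. A level of 3 counts, the floor used here, equals 0.255 to 0.407 CPM, the counts set to a common library size, before scaling, and each of the 9 genes was above it in all 18 libraries, from 33 counts of PRMT6 to 1511 counts of PRMT1. Levels below are CPM scaled by TMM, a scaling that evens out the bulk of the genes between libraries. A single gene without a symbol, ENSG00000266658, took 12.4% to 40.2% of the counts in the controls, 19.6% to 40.5% with TBX2, 10.7% to 47.4% with TBX3, 13.2% to 18.6% with TBX4 and 22.5% to 53.5% with TBX5. The plasmid genes followed the labels, from 4073 CPM of TBX2, 17690 CPM of TBX3 and 7520 CPM of TBX4 upward in their own libraries, against at most 4.82 CPM, 13.2 CPM and 3.56 CPM elsewhere. TBX5 reached 128 to 242 CPM on the human gene in the TBX5 libraries and at most 1 count in the others. One library, here TBX4 replicate c, has a label whose number is that of the TBX4 libraries but whose end reads TBX5. It held 85197 counts of TBX4 and 1 count of TBX5, and the calls with TBX4 are also given without it. Of the epithelial markers, KRT8 (19.3 to 52.5 CPM) and KRT18 (43.0 to 75.5 CPM) were present, while KRT19, EPCAM and CDH1 had at most 3 counts. The lung lineage markers NKX2-1, SFTPB, SFTPC and NAPSA had at most 10 counts, although the label is lung adenocarcinoma, and the mesenchymal markers VIM (689 to 967 CPM) and CDH2 (20.6 to 31.1 CPM) were present. Of 10 markers of fibroblasts, leukocytes and endothelium with a matching row, none had over 12 counts in any library. The labels name no separate cultures, so p-values measure only the spread between these libraries. In bulk RNA, fewer cells expressing a gene and less RNA per cell cannot be told apart.

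In the 6 controls the 9 genes spanned a wide range of levels, compared here as CPM per kilobase of annotated exon. PRMT1 was highest with 18.3 ± 1.16 (SD, n = 6), followed by PRMT5 with 15.1 ± 0.60, CARM1 with 8.93 ± 0.304, WDR77 with 6.99 ± 0.688 and PRMT3 with 4.98 ± 0.376. PRMT2 had 3.53 ± 0.106, PRMT9 had 2.32 ± 0.151, PRMT6 had 1.37 ± 0.105 and PRMT7 had 1.30 ± 0.0775, and PRMT6 and PRMT7 did not differ beyond their spread. The order depends on the length used, since all annotated exons of PRMT7 together make 13884 bases and its canonical transcript 3738. With canonical transcripts PRMT1 (65.9) and PRMT5 (21.5) kept the first places, CARM1 (12.0), PRMT2 (11.4) and PRMT3 (10.7) lay close together, and WDR77 (7.64), PRMT7 (4.83), PRMT9 (2.64) and PRMT6 (2.27) followed.

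On GRCh37, PRMT1 lies on chromosome 19 from 50179043 to 50192286, PRMT2 on chromosome 21 from 48055507 to 48085036, PRMT7 on chromosome 16 from 68344854 to 68394755 and PRMT5 on chromosome 14 from 23389734 to 23398617, and the counts are of reads on their exons. For each of these genes the 250 bases before a RefSeq transcription start are shown, on GRCh38.p14. These RefSeq starts need not be the ends of the GRCh37 gene spans above. The genes were picked because PRMT1 and PRMT2 were the members lower with more than 1 plasmid, PRMT7 holds the only T-box match of the family and PRMT5 kept its level. Capitals mark, on either strand, the T-box half-site GGTGTGA (which contains the shorter GGTGTG), the CCAAT box and the GC box GGGCGG.
PRMT1, chr19:49677021-49677270, plus strand: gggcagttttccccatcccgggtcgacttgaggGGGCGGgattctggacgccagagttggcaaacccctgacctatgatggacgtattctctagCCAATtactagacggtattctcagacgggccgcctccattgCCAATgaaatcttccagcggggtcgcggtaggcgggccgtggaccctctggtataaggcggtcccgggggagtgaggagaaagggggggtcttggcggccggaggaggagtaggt
PRMT2, chr21:46635424-46635673, plus strand: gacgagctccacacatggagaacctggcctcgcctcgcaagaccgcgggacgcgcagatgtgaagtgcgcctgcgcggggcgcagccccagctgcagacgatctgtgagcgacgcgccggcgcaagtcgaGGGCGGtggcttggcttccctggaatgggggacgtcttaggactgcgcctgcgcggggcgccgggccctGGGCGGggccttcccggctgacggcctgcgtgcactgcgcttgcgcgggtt
PRMT7, chr16:68310769-68311018, plus strand: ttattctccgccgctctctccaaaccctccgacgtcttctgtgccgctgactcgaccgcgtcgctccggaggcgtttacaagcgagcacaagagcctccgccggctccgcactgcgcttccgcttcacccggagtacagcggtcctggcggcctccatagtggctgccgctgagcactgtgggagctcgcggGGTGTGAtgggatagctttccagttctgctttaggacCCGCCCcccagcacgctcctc
PRMT5, chr14:22929377-22929626, minus strand: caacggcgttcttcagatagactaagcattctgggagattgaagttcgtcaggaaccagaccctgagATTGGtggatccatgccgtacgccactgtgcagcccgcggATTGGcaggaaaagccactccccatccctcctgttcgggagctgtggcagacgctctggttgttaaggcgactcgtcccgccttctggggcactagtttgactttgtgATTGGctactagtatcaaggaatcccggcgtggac
Of the 11 RefSeq windows of the 9 genes, GGTGTGA was found in 2, both of PRMT7, which overlap and share the site, and 2.76% of all 35116 windows hold it. GGTGTG without the last base added no window, and 14.2% of all windows hold it. PRMT1 has 2 CCAAT boxes and PRMT5 has 3 (32.0% of all windows hold 1 or more), and PRMT1 has 1 GC box and PRMT2 has 2 (42.6% of all windows). A match describes these letters and is not shown to be a bound site.

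PRMT1, the main asymmetric arginine methyltransferase of most cells, was lower than the controls with each of the 4 TBX plasmids. Its level was 83.2, 83.1 and 88.1 CPM in the Ctl libraries and 82.8, 92.0 and 96.1 CPM in the EV libraries. With TBX2 it was 66.9, 72.8 and 52.9 CPM, with TBX3 67.8, 72.6 and 66.4 CPM, with TBX4 77.6, 82.5 and 70.1 CPM, and with TBX5 65.7, 74.4 and 73.6 CPM. All 12 TBX libraries lay below the lowest control, with TBX4 replicate b close beneath it, and TBX2 replicate c was the lowest of all. Taken by plasmid, 11.6%, 6.14%, 5.74% and 6.55% of all tested genes lay below all controls with TBX2 to TBX5. For all 12 libraries at once the share of all genes was not counted. From a mean of 87.5 ± 5.58 CPM in the controls (SD, n = 6), PRMT1 fell to 64.2 ± 10.2 CPM (TBX2), 69.0 ± 3.26 CPM (TBX3), 76.7 ± 6.22 CPM (TBX4) and 71.2 ± 4.81 CPM (TBX5), each an SD over 3 libraries.

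The log2 fold change of PRMT1 was -0.44 ± 0.0801 (SE) with TBX2, adjusted p = 0.000286, so that the level fell by 26.1% (edgeR quasi-likelihood test, Benjamini-Hochberg over all tested genes, threshold 0.1). With TBX3 it was -0.35 ± 0.0631, adjusted p = 0.000691, with TBX5 -0.31 ± 0.0689, adjusted p = 0.00628, and with TBX4 -0.19 ± 0.0632, adjusted p = 0.0529. PRMT1 was the 1 member past the threshold in all 4 comparisons, where 1.24% of all tested genes were lower in all 4. The calls with TBX2, TBX3 and TBX5 were kept in each of the 9 fits that left out 1 library. The call with TBX4 was lost in 4 of 9, without EV replicate b (adjusted p = 0.1001) or c (0.101), or TBX4 replicate a (0.131) or c (0.306, log2 fold change -0.13). The fit without TBX4 replicate c left 0 members called with TBX4, where 1385 of 15576 tested genes were called, against 2032 with all libraries. The call was also lost in 1 fit of all 18 libraries (adjusted p = 0.115) and with Ctl controls alone (0.217). When libraries were scaled by their raw totals, which moved the median of all genes with TBX4 by 0.25 on the log2 scale, PRMT1 with TBX4 came out at 0.06 (adjusted p = 0.770), below that median, and no PRMT1 call was left. With the most counted gene taken out of the totals, PRMT1 was again called with all 4. It was also called with all 4 when the libraries with over 40% of counts on 1 gene were left out (adjusted p = 0.00629, 0.0030, 0.0694 and 0.0339 with TBX2 to TBX5), where TBX5 keeps 1 library, assumed to vary like the others.

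**Figure D1:**
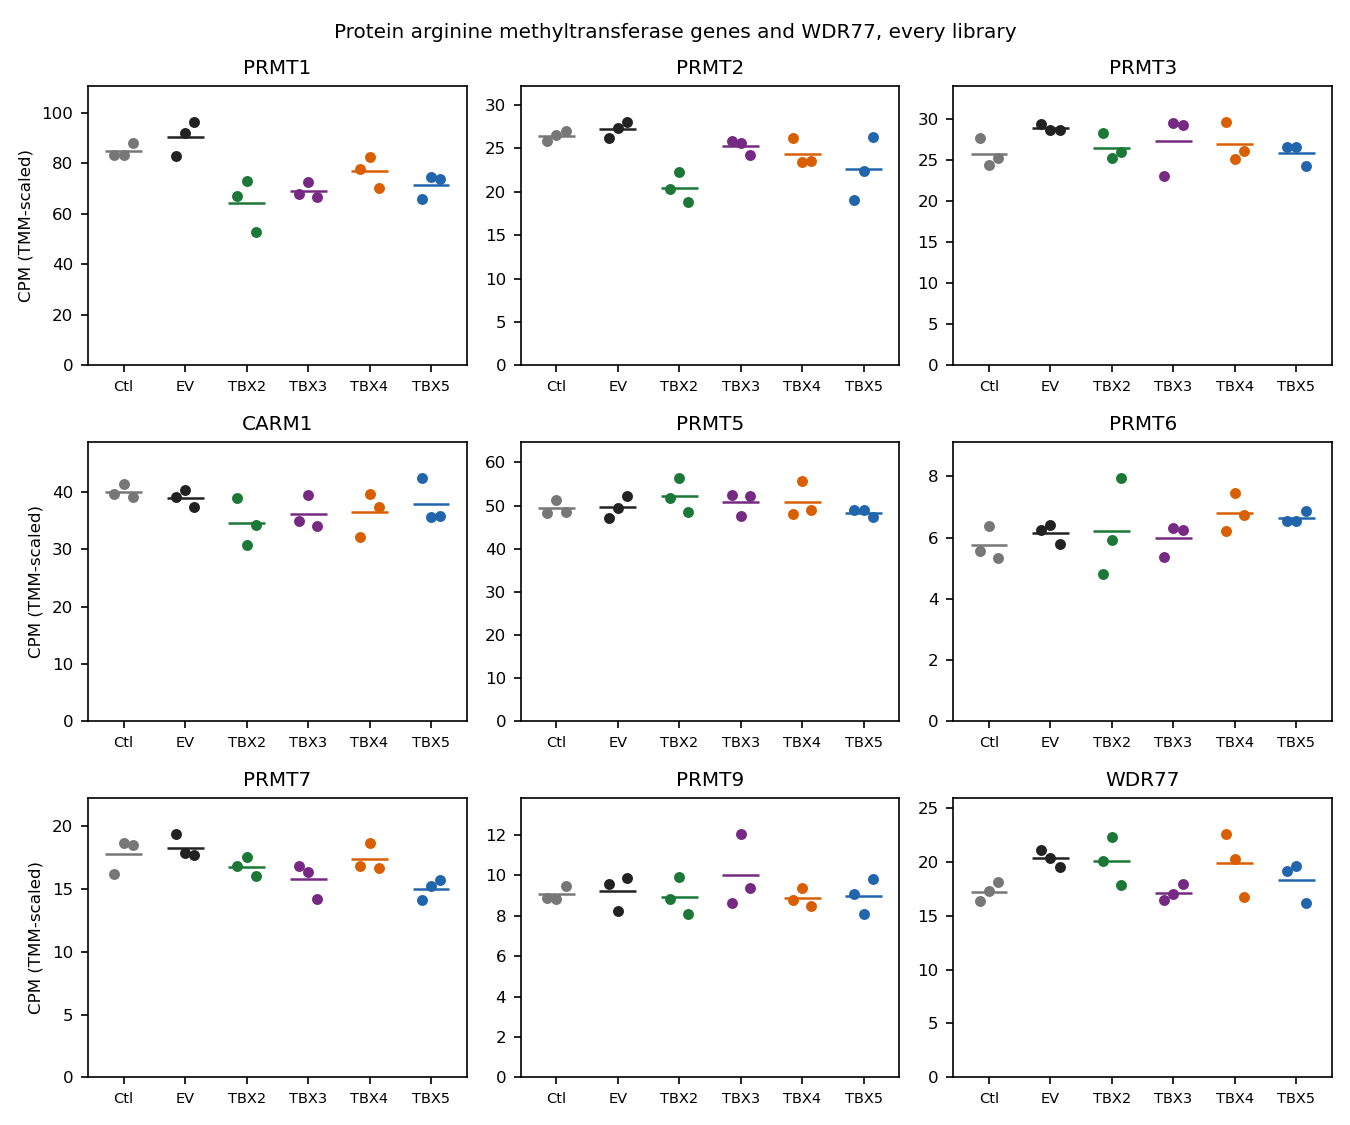
TMM-scaled CPM of the 9 genes in each of the 18 libraries (points) with group means (lines), by group on the x axis and with y axes from 0. For PRMT1 all TBX points lie below all Ctl and EV points, while PRMT5 stays between 47.0 and 56.3 CPM throughout.

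**Figure D2:**
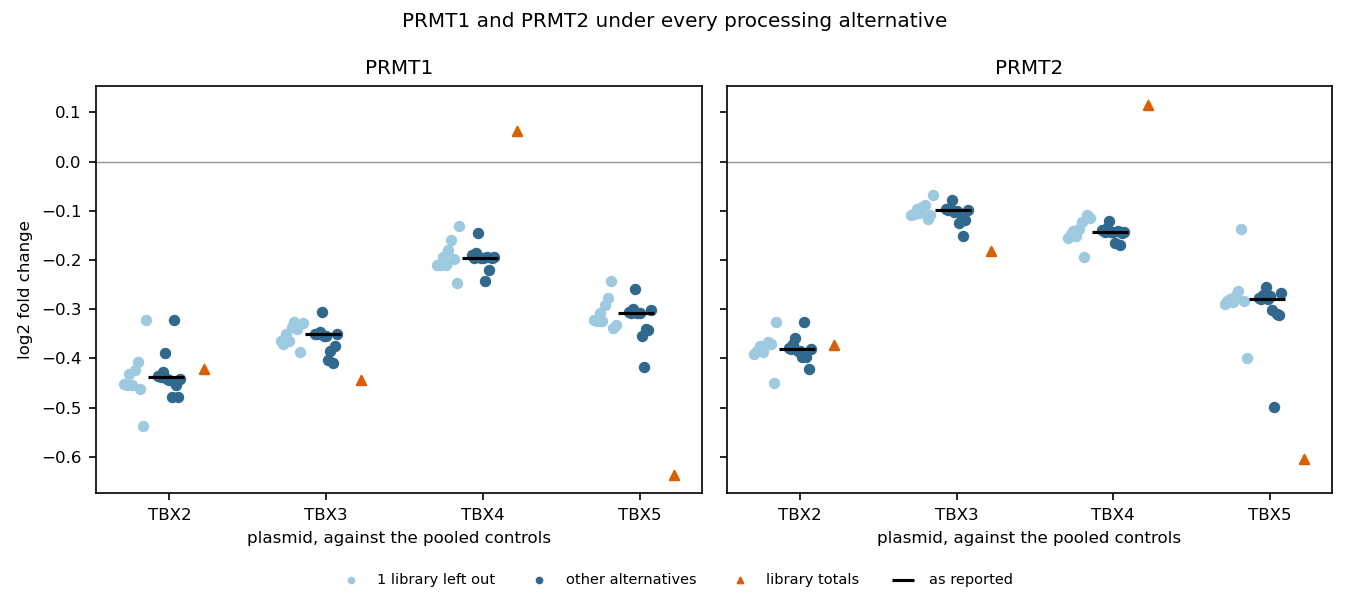
Log2 fold change of PRMT1 and PRMT2 against the pooled controls (y axis) with each TBX plasmid (x axis) as reported (bars), with 1 library left out, under the other alternatives, and with scaling by raw library totals (triangles). PRMT1 is below 0 in all fits but the one by library totals with TBX4, at 0.06.

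PRMT2, a weakly active relative of PRMT1 that is known as a coregulator of nuclear receptors, was lower with TBX2 and TBX5. It had 25.8, 26.5 and 27.0 CPM in the Ctl libraries and 26.2, 27.4 and 28.0 CPM in the EV libraries, the narrowest spread of the family relative to its level. It had 20.4, 22.3 and 18.8 CPM with TBX2 and 19.0, 22.4 and 26.3 CPM with TBX5. All TBX2 libraries lay below all controls, whereas TBX5 replicate c lay among the controls. PRMT2 had 25.9, 25.6 and 24.2 CPM with TBX3, and 26.2, 23.4 and 23.5 CPM with TBX4, both overlapping the controls.

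The log2 fold change of PRMT2 was -0.38 ± 0.0777 (SE, adjusted p = 0.000842, edgeR) with TBX2, where the level fell by 23.2%, and this call held without any 1 library. With TBX5 it was -0.28 ± 0.0907 (adjusted p = 0.06002), a call lost without TBX5 replicate a (-0.14, adjusted p = 0.454) or b (adjusted p = 0.134). It was also lost with EV controls alone (adjusted p = 0.112), with Ctl controls alone (0.216) and in the DESeq2 test (0.130). With TBX3 (-0.10, adjusted p = 0.425) and TBX4 (-0.14, adjusted p = 0.206) PRMT2 did not pass. Across the 18 libraries, which share the scaling, PRMT1 and PRMT2 had a Pearson r of 0.79 on the log2(CPM + 0.5) scale, and their deviations from the group means had an r of 0.62.

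CARM1, a coactivator that methylates histone H3 and splicing factors, passed with TBX2 only. It had 39.6, 41.4 and 39.1 CPM in the Ctl libraries, 39.1, 40.3 and 37.4 CPM in the EV libraries and 39.0, 30.7 and 34.3 CPM with TBX2. TBX2 replicate a lay among the controls, and the others lay below. The log2 fold change was -0.19 ± 0.0749 (SE, adjusted p = 0.0681, edgeR), and the call was lost in 4 of 9 fits with 1 library left out, namely without TBX2 replicate b (-0.10, adjusted p = 0.436), TBX2 replicate c (0.156), Ctl replicate b (0.113) or EV replicate b (0.103). It was also lost in the DESeq2 test (adjusted p = 0.114), with Ctl controls alone (0.120), with EV controls alone (0.234), by library totals (0.754) and without the libraries with over 40% of counts on 1 gene (0.172). With TBX3 (-0.14), TBX4 (-0.12) and TBX5 (-0.04) CARM1 did not pass, and a difference of the TBX2 effect from those was not called either. YIPF2, on the other strand, shares 20.2% of the exon bases of CARM1, and the authors' counting ignored strand.

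PRMT3, a cytoplasmic enzyme whose best known substrate is the ribosomal protein RPS2, and PRMT6, a nuclear enzyme known for histone H3, passed in no TBX comparison. PRMT3 ran from 23.0 to 29.5 CPM with the TBX plasmids and from 24.3 to 29.4 CPM in the controls, so that these ranges overlapped almost fully. PRMT6 was the least counted member, with 5.34 to 6.42 CPM in the controls and 4.81, 5.92 and 7.93 CPM with TBX2. With TBX5 PRMT6 had 6.53, 6.53 and 6.86 CPM, just above all 6 controls, but its log2 fold change of 0.15 had a 95% interval from -0.14 to 0.44 (adjusted p = 0.583).

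PRMT7, the monomethylating enzyme, was lower with TBX5. It had 16.2, 18.7 and 18.5 CPM in the Ctl libraries, 19.4, 17.9 and 17.7 CPM in the EV libraries and 14.2, 15.2 and 15.8 CPM with TBX5. The TBX5 libraries lay below all controls. The log2 fold change was -0.27 ± 0.0959 (SE, adjusted p = 0.0829, edgeR), and only 2 of the 9 fits with 1 library left out kept the call, those without Ctl replicate a or EV replicate c; in the other 7 the adjusted p ran up to 0.311, without TBX5 replicate a. It was also lost in the DESeq2 test (adjusted p = 0.209), with Ctl controls alone (0.232), with EV controls alone (0.133), by library totals (0.271) and without the libraries with over 40% of counts on 1 gene (0.227). With TBX3 PRMT7 had 16.9, 16.4 and 14.2 CPM, and the log2 fold change of -0.21 did not pass (adjusted p = 0.143). PRMT7 is the member with the T-box letters in the window shown above, and with TBX2 (-0.09) and TBX4 (-0.05) it did not pass. SMPD3, on the other strand, shares 13.9% of the exon bases of PRMT7.

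PRMT5, the main symmetric arginine methyltransferase, was close to its control level with every plasmid. It had 48.4, 51.2 and 48.4 CPM in the Ctl libraries and 47.0, 49.5 and 52.3 CPM in the EV libraries. It had 51.9, 56.3 and 48.6 CPM with TBX2, 52.5, 47.7 and 52.1 CPM with TBX3, 48.1, 55.8 and 48.9 CPM with TBX4, and 48.9, 48.9 and 47.3 CPM with TBX5. In each group at least 1 library lay within the control range, and the log2 fold changes were 0.08 with TBX2 (95% interval -0.05 to 0.22), 0.04 with TBX3 (-0.09 to 0.16), 0.04 with TBX4 (-0.09 to 0.16) and -0.04 with TBX5 (-0.17 to 0.10). PRMT5-AS1, on the other strand, shares 28.2% of the exon bases of PRMT5.

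WDR77, also called MEP50, binds PRMT5 in the complex that methylates histones and Sm proteins, and it passed in no comparison. It had 16.3, 17.3 and 18.1 CPM in the Ctl libraries and 21.1, 20.3 and 19.5 CPM in the EV libraries. The EV libraries lay above all Ctl libraries. The log2 fold changes against the pooled controls were 0.11 (TBX2), -0.12 (TBX3), 0.08 (TBX4) and -0.03 (TBX5), and with TBX4 the 3 libraries spread from 16.7 to 22.5 CPM. ATP5PB and a gene without a symbol share 28.4% of the exon bases of WDR77. PRMT9, which methylates the splicing factor SF3B2, was at 8.09 to 12.0 CPM with the TBX plasmids and 8.24 to 9.86 CPM in the controls, and its log2 fold changes ran from -0.05 with TBX4 to 0.10 with TBX3.

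**Figure D3:**
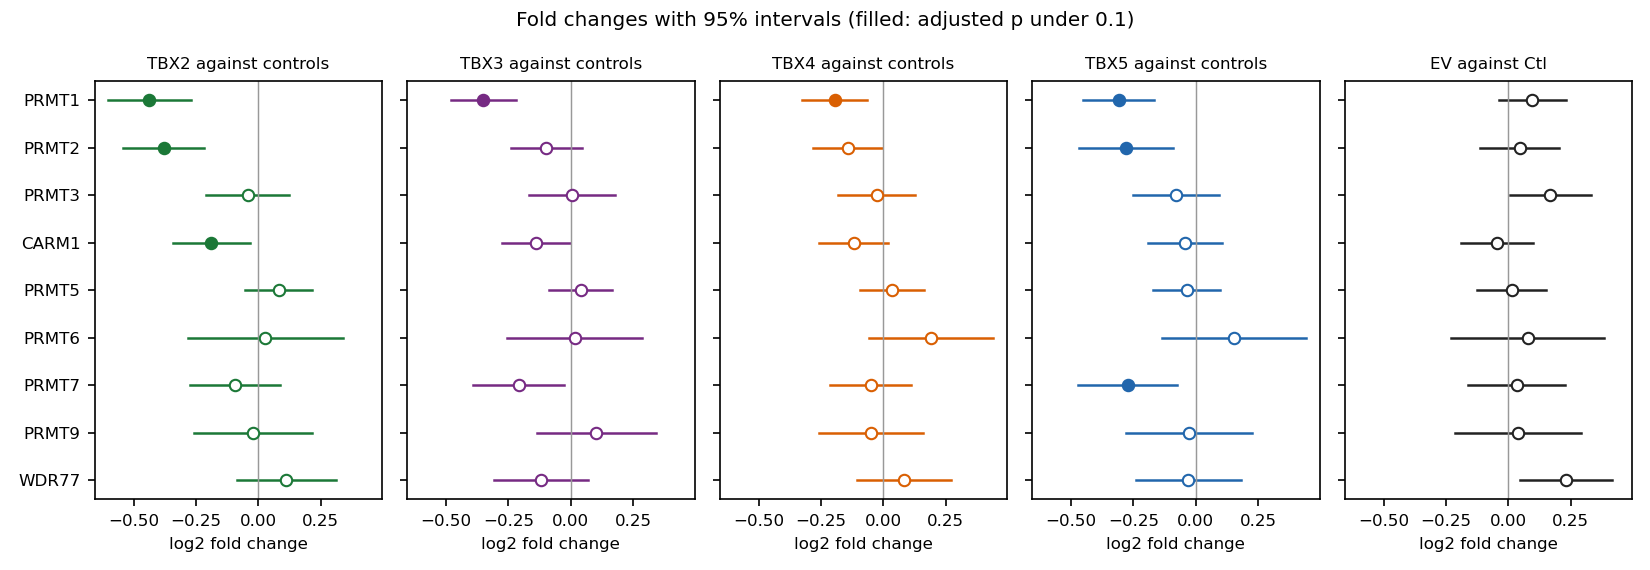
Log2 fold change (x axis) of each of the 9 genes in the 4 comparisons with the pooled controls and in EV against Ctl, with 95% intervals; filled points have an adjusted p under 0.1. PRMT1 is filled in all 4 TBX panels, from -0.44 to -0.19, and no point is filled in EV against Ctl.

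Counted over the family, 3 of 9 genes were called lower and 0 higher with TBX2 (PRMT1, PRMT2 and CARM1), where 32.6% of all tested genes were called and 15.6% were called lower. With TBX3 1 was called, PRMT1 (14.9% of all genes called, 6.40% lower), with TBX4 1, PRMT1 (13.0% called, 6.07% lower), and with TBX5 3, PRMT1, PRMT2 and PRMT7 (12.7% called, 6.12% lower). None was called higher, against 17%, 8.47%, 6.98% and 6.56% of all genes with TBX2, TBX3, TBX4 and TBX5. With TBX2, TBX3 and TBX4 the counts of called members lie near the shares of all genes called in either direction. With TBX2, 2 of 9 genes had all libraries below all controls (11.6% of all genes), with TBX3 1 (6.14%), with TBX4 1 (5.74%) and with TBX5 2 below (6.55%) and 1, PRMT6, above (7.48%). The median log2 fold change of the 9 was -0.04 (TBX2), -0.10 (TBX3), -0.05 (TBX4) and -0.04 (TBX5), against medians of all tested genes of -0.01 to 0.00. Scaled by raw totals, 0 members were called with TBX2, TBX3 and TBX5, and with TBX4 the 1 call was PRMT6, higher (0.45, adjusted p = 0.0985). This scaling left 6.78%, 0.225%, 17.9% and 0.597% of all tested genes called with TBX2 to TBX5, so that 0 of 9 is close to the share of all genes with TBX3 and TBX5. At a threshold of 0.05, the counts were 2, 1, 0 and 1 with TBX2, TBX3, TBX4 and TBX5. The shares of all genes called were then 25.9%, 10.4%, 8.74% and 7.95%, and these counts lie near them.

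Between the control groups no member was called (edgeR, 0.385% of all genes), while PRMT3 and WDR77 had an unadjusted p under 0.05. PRMT3 had 27.7, 24.3 and 25.2 CPM in Ctl and 29.4, 28.7 and 28.6 CPM in EV, a log2 fold change of 0.17 (adjusted p = 0.527, edgeR). That of WDR77 was 0.23 (adjusted p = 0.444, edgeR). These were the 2 of 9 members whose EV libraries all lay above the Ctl libraries, as did 7.68% of all tested genes. DESeq2 called no member, where it called 0.186% of all genes.

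The share that each gene held of the summed counts of the 9 genes needs no scaling between libraries. PRMT1 held 29.5% to 32.6% of them in the controls. It held 23.0% to 27.7% in the TBX2 libraries, 26.2% to 27.3% in the TBX3 libraries, 27.5% to 29.2% in the TBX4 libraries and 26.1% to 28.9% in the TBX5 libraries. All 12 TBX libraries were below all 6 controls. Such shares were not computed for other genes. PRMT5 held 16.8% to 18.4% in the controls and 20.2% to 21.4% with TBX2, 17.9% to 20.9% with TBX3, 17.9% to 19.8% with TBX4 and 18.5% to 19.4% with TBX5. The PRMT5 share lay above all controls with TBX2 and, narrowly, with TBX5, and overlapped them with TBX3 and TBX4. PRMT2 held 9.33% to 9.66% in the controls and 7.93% to 8.47% with TBX2, below all controls. With TBX3 it held 9.55% to 10.3%, with TBX4 8.30% to 9.77% and with TBX5 7.57% to 10.3%. These ranges overlapped the controls, and that of TBX5, where PRMT2 was called lower, reached above them. Since the shares of a library add up to the whole, a lower share of PRMT1 raises the others, and the shares show unequal change only.

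**Figure D4:**
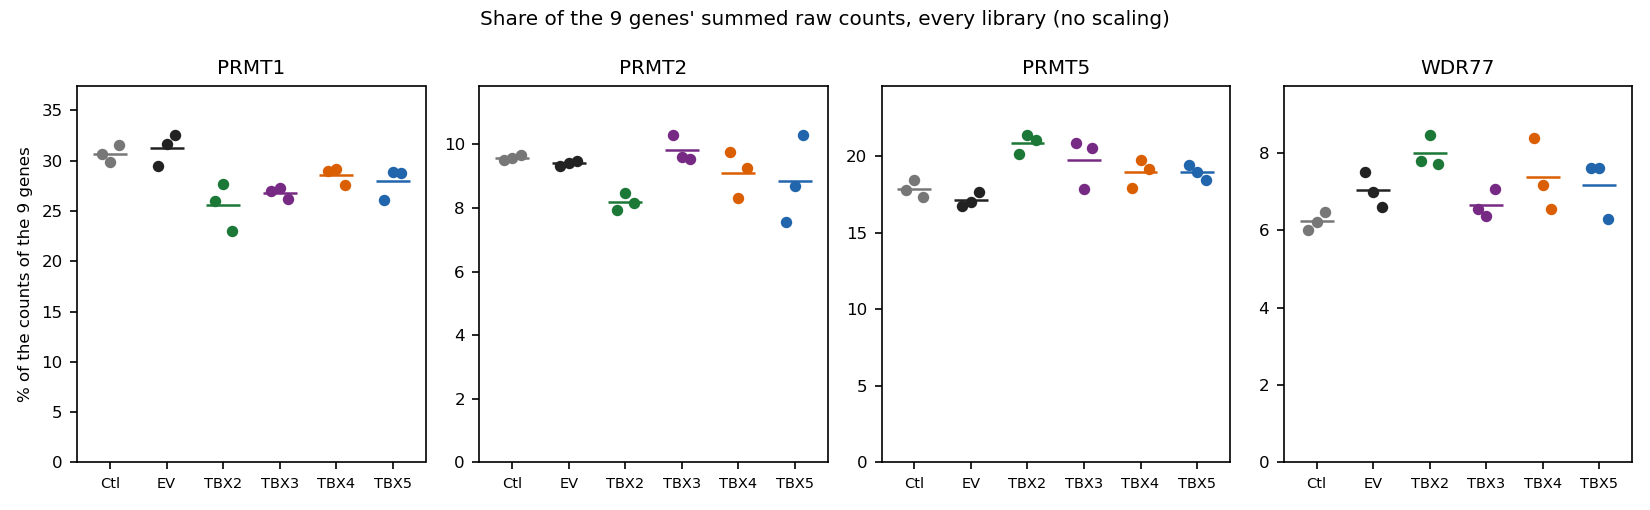
Percent of the summed raw counts of the 9 genes held by PRMT1, PRMT2, PRMT5 and WDR77 in each library (points) with group means (lines), y axes from 0. The PRMT1 share averaged 31.0% in the 6 controls and 25.6% with TBX2.

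Whether the plasmids differed from each other was tested directly, in 1 fit of all 18 libraries. No member passed the joint test for any difference among TBX2, TBX3, TBX4 and TBX5 (edgeR, 22.7% of all genes called), with the smallest adjusted p of 0.109 for PRMT2 and 0.183 for PRMT1, and PRMT2 was the 1 member with an unadjusted p under 0.05. DESeq2's test called none, where it called 16.1% of all genes. Of the 54 pairwise tests of the 9 genes, 2 passed, and none did in TBX2 against TBX5 (12.1% of all genes called), TBX3 against TBX4 (9.98%), TBX3 against TBX5 (7.41%) or TBX4 against TBX5 (0.539%). PRMT2 was lower with TBX2 than with TBX3 (log2 fold change -0.28 ± 0.0969, adjusted p = 0.0585, edgeR, 15.5% of all genes called), and the libraries of both groups did not overlap. The share of all genes without overlap between TBX2 and TBX3 was not counted. PRMT1 was lower with TBX2 than with TBX4 (-0.25 ± 0.0871, adjusted p = 0.08002, edgeR, 12.3% of all genes called), with the TBX2 replicate b level within the range of TBX4. Both differences were lost by library totals, with the most counted gene taken out of the totals, and in 4 of 18 fits with 1 library left out each. That of PRMT2 reached an adjusted p of 0.182 without TBX2 replicate c and was also lost without TBX2 replicate a, TBX3 replicate a or TBX3 replicate b. That of PRMT1 reached 0.402 (log2 fold change -0.14) without TBX2 replicate c, was also lost without TBX2 replicate a, TBX4 replicate a or TBX4 replicate b, and kept its call without TBX4 replicate c (adjusted p = 0.0459, edgeR). The joint test is sensitive to single libraries: PRMT1 passed it without TBX2 replicate b (adjusted p = 0.0489), and PRMT2 passed without TBX2 replicate b (0.0816), TBX5 replicate a (0.0776) or TBX5 replicate c (0.0350). Without TBX4 replicate c no member passed it, the smallest adjusted p being 0.106 for PRMT1.

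Among all tested genes with a mean of at least 10 CPM, those whose log2(CPM + 0.5) followed PRMT1 most closely over the 18 libraries were TUBA1B (Pearson r 0.94), a tubulin, AKT1 (0.94), a growth signalling kinase, H2AC6 (0.94), a histone H2A gene, CCT7 (0.94), a chaperonin subunit, and RUVBL2 (0.94), an ATPase of chromatin complexes. For PRMT5 the closest were VARS2 (0.78), SMG5 (0.75), ALG2 (0.72), ZC3HC1 (0.69) and DPH2 (0.68). These values share libraries, scaling and the group differences, and are a description. Between PRMT1 and PRMT5, r was 0.04 over the 18 libraries and 0.55 for deviations from the group means. PRMT1 and PRMT7 had an r of 0.61, and 0.42 within groups.

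The genes around the methyltransferases were taken from lists of partners, of the methyl donor cycle, of readers and of known substrates. The counts of these lists stand beside the shares of all tested genes called lower and higher, which were 15.6% and 17% with TBX2, 6.40% and 8.47% with TBX3, 6.07% and 6.98% with TBX4, and 6.12% and 6.56% with TBX5. AHCY, which clears the S-adenosylhomocysteine left by every methylation and so relieves the inhibition of methyltransferases, was lower with TBX2 (-0.47, adjusted p = 2.68e-05), TBX3 (-0.32, 0.00186), TBX4 (-0.19, 0.0443) and TBX5 (-0.26, 0.0211), all from edgeR. The call with TBX4 was lost without TBX4 replicate c (adjusted p = 0.255) and that with TBX5 without TBX5 replicate a (0.107). Of the 10 genes of the methyl donor cycle, 3 were called lower and 1 higher with TBX2, 2 and 0 with TBX3, 2 and 0 with TBX4, and 3 and 1 with TBX5. Neither call with TBX4 was left without TBX4 replicate c, where 1385 of all 15576 tested genes were called, against 2032 with all libraries. The median of this list lay between -0.14 with TBX2 and -0.06 with TBX4.

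Of the 7 partners and regulators, 1 was called lower and 3 higher with TBX2, 1 and 2 with TBX3, 0 and 0 with TBX4, and 1 and 0 with TBX5, against 15.6% of all genes lower and 17% higher with TBX2. JMJD6, a hydroxylase that has also been described as an arginine demethylase, rose with TBX3 (0.48, adjusted p = 0.000307) and TBX2 (0.23, 0.0537, but 0.247 without TBX2 replicate c), and had values of 0.12 with TBX4 and -0.01 with TBX5. BTG1, an antiproliferative protein that binds PRMT1, rose with TBX2 (0.44, adjusted p = 0.00428) and had values of 0.23, -0.15 and 0.15 with TBX3, TBX4 and TBX5. Of the 8 readers and clearance genes 6 were tested, of which 4 were called lower and 1 higher with TBX2, 1 and 1 with TBX3, 1 and 0 with TBX4, and 1 and 0 with TBX5. SMNDC1, a splicing factor with a Tudor domain, rose with TBX2 (0.64, adjusted p = 0.00144) and TBX3 (0.39, 0.0524, but 0.415 without TBX3 replicate c). DDAH2, listed among the clearance genes, fell with TBX2 (-0.47, adjusted p = 0.00193, edgeR) and had values of -0.13, -0.04 and 0.16 with TBX3, TBX4 and TBX5. DDAH1, from the same list, was lower with TBX2 (-0.35, adjusted p = 0.000132), TBX4 (-0.35, 7.91e-05) and TBX5 (-0.29, 0.00306), all from edgeR. Its calls were kept in each of the 9 fits with 1 library left out, and with TBX3 its value was -0.03.

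Of the 6 Sm and other spliceosomal substrates, which include Sm proteins methylated by PRMT5 and the PRMT9 substrate SF3B2, 4, 1, 2 and 2 were called lower with TBX2 to TBX5, and none higher, against 15.6%, 6.40%, 6.07% and 6.12% of all genes lower. SNRPD3, a core Sm protein, was lower in all 4 comparisons (-0.31, -0.18, -0.19 and -0.25 with TBX2 to TBX5, the highest adjusted p being 0.0860), and SNRPD1 in all but TBX3 (-0.29, -0.19, -0.25 and -0.34). Of 16 RNA-binding and ribosomal substrates, which include the PRMT3 substrate RPS2 beside targets of PRMT1, 15 were tested, and 6, 5, 7 and 5 were called lower with TBX2 to TBX5, against the same shares of all genes, with 1 called higher with TBX2. The gene ID that the annotation gives TAF15 held 0 counts in all libraries and was not described. HNRNPUL1 (-0.61, -0.24, -0.37 and -0.25), HNRNPA1 (-0.40, -0.18, -0.22 and -0.18), SERBP1 (-0.35, -0.19, -0.25 and -0.24) and the stress granule protein G3BP1 (-0.33, -0.17, -0.20 and -0.26) were lower in all 4 comparisons, the highest adjusted p of these being 0.0951 for HNRNPA1 with TBX3. Single libraries decided many of these calls. Without TBX4 replicate c those of SNRPD1 (adjusted p = 0.292), SNRPD3 (0.216) and HNRNPA1 (0.126) with TBX4 were lost, so that 0 of 2 calls of the spliceosomal list and 6 of 7 of the RNA-binding list were left. Of all 15576 tested genes 1385 were called in that fit, against 2032 with all libraries. Without TBX5 replicate a those of SNRPD1 (0.108), SNRPD3 (0.367), HNRNPA1 (0.270), SERBP1 (0.167) and HNRNPUL1 (0.135) with TBX5 were lost, and without TBX3 replicate c those of SNRPD3 (0.372), HNRNPA1 (0.400), SERBP1 (0.318) and HNRNPUL1 (0.239) with TBX3. G3BP1 was not called with TBX4 without TBX4 replicate b (0.144) or with TBX3 without TBX3 replicate a (0.120), and SNRPD1 not with TBX2 without TBX2 replicate a (0.164). Of 11 substrates in transcription and repair, 3 were called lower with TBX2, 1 lower and 3 higher with TBX3, 1 lower with TBX4 and 3 lower with TBX5. In either direction 32.6% of all genes were called with TBX2 and 13.0% with TBX4. The 3 of 11 with TBX2 and 1 of 11 with TBX4 lie near these shares. EP300, a histone acetyltransferase, rose with TBX3 (0.40, adjusted p = 0.000852), and E2F1, a cell cycle activator, fell with TBX2 (-0.37, adjusted p = 0.0018) and TBX5 (-0.26, adjusted p = 0.0336, but 0.145 without TBX5 replicate c).

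**Figure D5:**
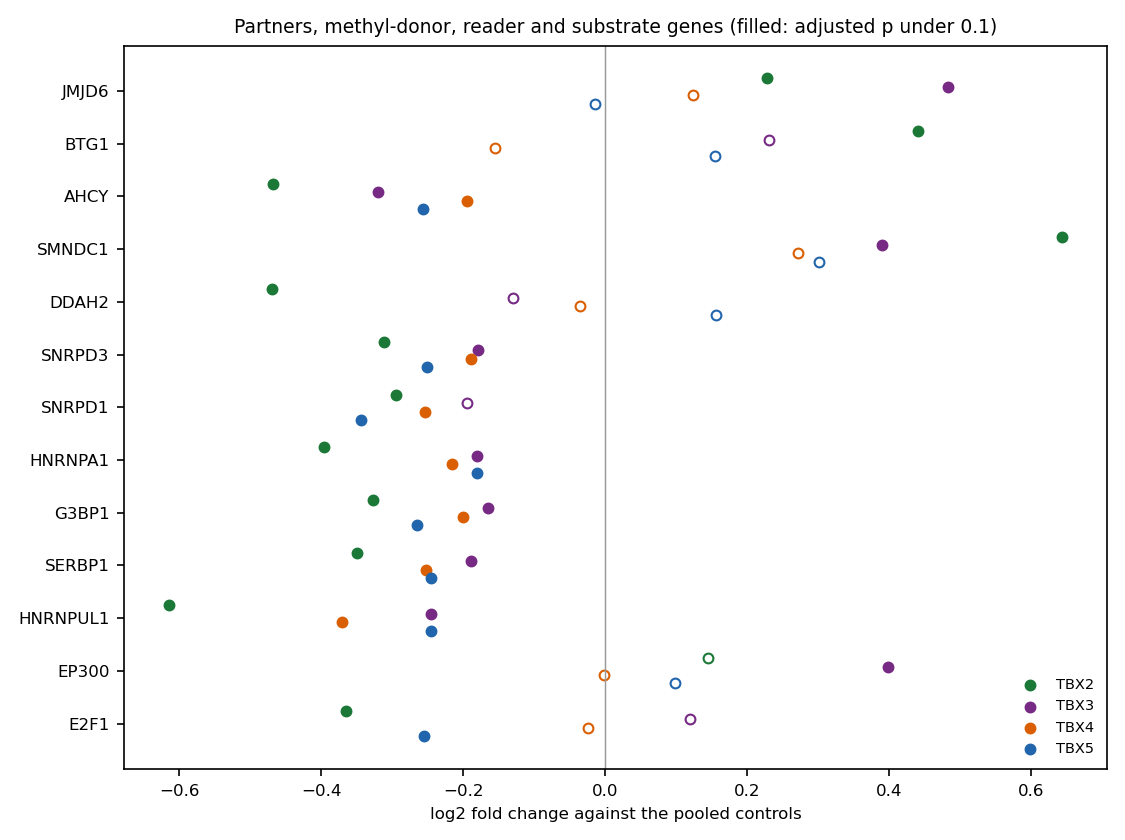
Log2 fold change against the pooled controls (x axis) of the named genes of the lists except DDAH1, coloured by plasmid, with filled points for an adjusted p under 0.1. AHCY, SNRPD3, HNRNPA1, G3BP1, SERBP1 and HNRNPUL1 are filled and below 0 with all 4 plasmids.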

How the data were processed

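RNA-seq read counts of 18 NCI-H1299 libraries were used. The authors aligned paired reads to GRCh37 with STAR 2.3.0, counted reads on each gene by featureCounts with its defaults, which ignore strand, and deposited the raw counts. Groups and replicate letters came from the sample titles. Symbols came from the annotation table, which paired 43631 of the 63677 IDs and 89 of 90 listed genes. The members and all lists were chosen with earlier results of these data known. A gene was tested if over 5 counts were seen in 10 or more libraries. Each TBX group was compared with the 6 controls by the quasi-likelihood test of edgeR 4.0.16 (TMM, R 4.3.3), with Benjamini-Hochberg adjustment over all tested genes and a threshold of 0.1; the study used DESeq2. Intervals are 95% and come from the fitted standard error. Named list genes were those called in all 4 comparisons and, per list, the 2 with the largest called change, and DDAH1 was added beside DDAH2. Some listed genes that met this rule or served as markers are not reported here. The 5 genes most like PRMT1 and PRMT5 were named. The alternatives were DESeq2 1.42.0 and its size factors, library totals with and without the most counted gene, other filters, EV or Ctl alone, 1 fit, a replicate block, a threshold of 0.05, each library left out, and, chosen after seeing the data, leaving out libraries with over 40% of counts on 1 gene, and repeating the 2 called differences between TBX groups and the list genes without each library. Without molecular identifiers, reads may be copies of 1 molecule, and the floor covers counting error alone. In simulated data for TBX2 against the controls, with 200 of 15576 genes changed, 99.5% were recovered with 10.8% false calls. The genes raised there had a median fitted log2 fold change of 1.02. Recovery of smaller log2 fold changes, like those of the called members, was not tested.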

Additional observations from a re-analysis of the deposited data

Results flagged for a closer look

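Between the TBX groups, 2 of 54 pairwise tests of the arginine methyltransferases in 1 fit of all 18 libraries were called, while no member passed the joint test of any difference (adjusted p = 0.109 for PRMT2 and 0.183 for PRMT1, edgeR, 22.7% of all genes called). PRMT2 was lower with TBX2 than with TBX3 by a log2 fold change of -0.28 (adjusted p = 0.0585, edgeR, 15.5% of all genes called), at 18.8 to 22.3 CPM against 24.2 to 25.9 CPM. PRMT1 was lower with TBX2 than with TBX4 by -0.25 (adjusted p = 0.08002, edgeR, 12.3% of all genes called), at 52.9 to 72.8 CPM against 70.1 to 82.5 CPM. Each call was lost in 4 of 18 fits with 1 library left out, up to an adjusted p of 0.182 for PRMT2 and 0.402 for PRMT1, both without TBX2 replicate c.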

How the results depend on the processing

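PRMT1 kept its call with TBX2, TBX3 and TBX5 under all alternatives but scaling by library totals, and it was called with TBX4 in 5 of the 9 fits with 1 library left out. By library totals 0 members were called with TBX2, TBX3 and TBX5, where 6.78%, 0.225% and 0.597% of all genes were called, and without the most counted gene in the totals 3 with TBX3 (16.5% of all genes). With TBX4 0 were called in 1 fit of 18 libraries (11.6% of all genes called), at a threshold of 0.05 (8.74%) and with Ctl controls alone (11.6%). With TBX5 1 was called at 0.05 (7.95% of all genes), with Ctl (7.65%) or EV (8.97%) controls alone and in the DESeq2 test (8.39%). With at least 10 counts in every library 1 member, PRMT2, passed the joint test (29.4% of all genes). Leaving out 1 library gave 2 to 3 called members with TBX2, 1 to 2 with TBX3, 0 to 1 with TBX4 and 1 to 3 with TBX5, and 0 to 2 in the joint test. The 0 with TBX4 came where 1235 (without TBX4 replicate a), 1385 (TBX4 replicate c), 1792 (EV replicate b) or 2249 (EV replicate c) of 15576 genes were called. With all libraries 2032 were. The 1 with TBX5 came where 1800 (without TBX5 replicate a) or 1239 (TBX5 replicate b) genes were called, against 1975 with all. The 2 in the joint test came where 3280 were called (without TBX2 replicate b), against 3536. For the other fits these numbers are not given here. The cause of these changes was not tested.

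Signs changed for members that were not called, except PRMT1 with TBX4. By library totals the log2 fold changes became 0.14 (CARM1, TBX4), 0.061 (PRMT1, TBX4), 0.12 (PRMT2, TBX4), -0.078 (PRMT3, TBX3), 0.23 (PRMT3, TBX4), -0.038 (PRMT5, TBX3), -0.064 (PRMT6, TBX3), -0.16 (PRMT6, TBX5), 0.21 (PRMT7, TBX4), 0.21 (PRMT9, TBX4) and 0.15 (CARM1, EV against Ctl), where this scaling moved the median of all genes to 0.20, -0.08, 0.25 and -0.31 for EV against Ctl, TBX3, TBX4 and TBX5. Totals without the most counted gene gave -0.050 (PRMT3, TBX3), -0.017 (PRMT5, TBX3) and -0.036 (PRMT6, TBX3). Ctl controls alone gave 0.043, 0.061 and 0.0064 (PRMT3 with TBX2, TBX4 and TBX5) and 0.091 (WDR77, TBX5), and EV controls alone gave -0.077 (PRMT3, TBX3), -0.0065 and -0.026 (PRMT6 with TBX2 and TBX3) and -0.026 (WDR77, TBX4). No filter gave -0.017 (PRMT3, TBX3), -0.014 and -0.0051 (PRMT6 with TBX2 and TBX3), and the DESeq2 test gave -0.0017 (PRMT3, TBX3). Without the libraries with over 40% of counts on 1 gene the values were 0.098 (CARM1, TBX5), -0.057 (PRMT3, TBX3), -0.16 and -0.038 (PRMT6 with TBX2 and TBX3), 0.046 and -0.0060 (PRMT9 with TBX2 and TBX3) and 0.018 (WDR77, TBX5). With 1 library left out the ranges that crossed 0 were -0.14 to 0.0022 (CARM1, TBX5), -0.071 to 0.10 and -0.097 to 0.029 (PRMT3 with TBX3 and TBX4), -0.033 to 0.081 (PRMT5, TBX4), -0.14 to 0.18 and -0.039 to 0.076 (PRMT6 with TBX2 and TBX3), -0.11 to 0.037, -0.015 to 0.18 and -0.079 to 0.030 (PRMT9 with TBX2, TBX3 and TBX5), -0.013 to 0.19 and -0.070 to 0.044 (WDR77 with TBX4 and TBX5), and, for EV against Ctl, -0.033 to 0.048 (PRMT5), -0.028 to 0.068 (PRMT7) and -0.031 to 0.10 (PRMT9).

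No sign was seen that the replicate letters pair the libraries. Deviations from the group means had a mean r of -0.00092 over 45 pairs of libraries with the same letter, with single values from -0.11 to 0.20. The mean was 0.00048 over 90 pairs with different letters. This second mean is not independent of the first, because deviations within a group cancel. With the replicate block 3, 1, 1 and 2 members were called with TBX2 to TBX5, against 30.4%, 15.2%, 10.9% and 12.0% of all genes. PRMT7 with TBX5 was lost there (-0.27, adjusted p = 0.111, edgeR). Depth limits PRMT6 and PRMT9, whose counts ran from 33 to 96 and from 41 to 155.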
